A study of Rattus norvegicus with 8 samples.

Results

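The CC chemokine ligands described here are the 10 genes Ccl2, Ccl3, Ccl4, Ccl5, Ccl6, Ccl7, Ccl9, Ccl17, Ccl22 and Ccl24. They were taken by their symbols from the 23487 genes of the count table, and all 10 were found. RNA was sequenced from peritoneal macrophages of female Wistar rats, aged 8 weeks, that were washed from the cavity and sorted by flow cytometry (CD11b/c and His48 staining) 15 days after the intraperitoneal injection of carbon nanotubes. A group of 4 rats received MWCNT-XNRI-7 (CNT-7), needle-like multi-walled nanotubes that induce mesothelioma in rats, and another 4 received the tangled, non-mesotheliomagenic MWCNT-CNT-T (CNT-T). The injected mass was the same for both particles. Libraries of untreated rats were not analysed here, so that each difference is one between both particles. Each library was taken as 1 rat and is called by the number in its title, 3, 5, 10 and 11 after CNT-7 and 1, 2, 12 and 13 after CNT-T. The labels do not say what these numbers stand for, and if libraries shared an animal the p-values would measure a partly technical spread.

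Chemokines are small secreted proteins that guide leukocytes along gradients through G protein-coupled receptors, and in the CC family the first conserved cysteines are adjacent. Ccl2 and Ccl7 attract monocytes, mainly through Ccr2. Ccl3, Ccl4 and Ccl5 attract monocytes, macrophages and T cells, and Ccl6 and Ccl9 are rodent ligands of Ccr1. Ccl17 and Ccl22 share the receptor Ccr4 of T helper and regulatory T cells, whereas Ccl24 attracts eosinophils through Ccr3. In macrophages, NF-kappaB induces many ligands of the first groups, and interleukin-4 acting through Stat6 induces Ccl17, Ccl22 and Ccl24.

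Of the 10 ligands, 5 were significantly higher after CNT-7 than after CNT-T, namely Ccl2, Ccl7, Ccl9, Ccl17 and Ccl22. In all 12124 genes tested, 13.9% were higher and 14.0% lower at the same threshold, an adjusted p-value under 0.10 in edgeR. All 5 also changed by at least 2-fold, a size at which 4.55% of all genes tested passed the threshold upwards and 3.74% downwards. The rats of both groups did not overlap for 6 of the 9 ligands tested, and for 24.9% of all genes tested. Ccl6 was the only ligand below that threshold with a lower level after CNT-7, its change was below 2-fold, and its call was lost in most repeats of the test. Ccl3, Ccl4 and Ccl24 did not pass, and Ccl5 had too few counts to be tested. Levels are given as CPM, the counts scaled to a library of 1000000 with TMM-normalized library sizes. They are not divided by gene length and are therefore compared between rats and not between genes. Ccl22 and Ccl9 passed the filter on low counts through the CNT-7 rats alone, since 0 and 3 of the 4 CNT-T rats met it, so that a higher level after CNT-7 was favoured by the filter. In bulk RNA, a change in the share of the cells that express a gene and a change in its RNA per cell cannot be told apart.

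The libraries held between 27394995 and 30215063 counts after CNT-7 and between 27195157 and 33732981 after CNT-T, and 3 counts correspond to between 0.0887 and 0.109 CPM. Of 10 macrophage markers 9 were in the table, and all 9 were tested. Their summed level ranged from 15466 to 22454 CPM in CNT-7 rats against 24289 to 34477 CPM in CNT-T rats, mostly from the lysozyme gene Lyz2. After CNT-7, 5 of the 9 were lower and Cd14 was higher, beside 14.0% of all genes tested that were lower and 13.9% higher. Some defining markers of other cells were low, with at most 2.11 CPM of Cd3e (T cells), 0.54 CPM of Ms4a1 (B cells), 0.56 CPM of Il5ra (eosinophils) and 0.20 CPM of Msln (mesothelial cells) in any rat, and no count of Mpo (neutrophils). Of 11 neutrophil markers 6 were tested, with Fcnb higher and S100a8 lower after CNT-7. Fcnb passed the filter on low counts through the CNT-7 rats alone. The summed level of the 11 markers, mostly from Csf3r, was 35.3 to 63.9 CPM in the CNT-7 rats and 26.7 to 68.5 CPM in the CNT-T rats. The summed level of 12 T and NK cell markers was nevertheless higher after CNT-7, between 20.4 and 25.5 CPM against 7.73 and 10.0 CPM. Of these markers 6 were tested, with Cd8a, Cd8b and Cd2 higher, beside 13.9% of all genes tested. Cd2 passed the filter on low counts through the CNT-7 rats alone. Cd8a and Cd8b had means of 6.02 and 7.66 CPM after CNT-7 against 0.90 and 2.30 CPM after CNT-T. Lck, Prf1 and Ncr1 did not pass the threshold. The summed level of 5 B cell markers, mostly Cd22, ranged from 72.9 to 125 CPM in CNT-7 rats against 128 to 147 CPM in CNT-T rats. The part of these other cells in the differences of the ligands was not tested.

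Promoter sequences of the ligands are shown so that short motifs near their start sites can be read beside the values. RefSeq promoters of the assembly GRCr8 were found for 6 of the 10 ligands, Ccl6, Ccl7, Ccl9, Ccl17, Ccl22 and Ccl24. The 250 bases before each annotated start are given 5′ to 3′ on the strand of the gene. Capitals mark matches on either strand to the TATA box TATAAA, to TTC and GAA with any 4 bases between them (the STAT motif, in the spacing that Stat6 binds), and to the NF-kappaB consensus.
Ccl7, chr10:67513845-67514094, plus strand: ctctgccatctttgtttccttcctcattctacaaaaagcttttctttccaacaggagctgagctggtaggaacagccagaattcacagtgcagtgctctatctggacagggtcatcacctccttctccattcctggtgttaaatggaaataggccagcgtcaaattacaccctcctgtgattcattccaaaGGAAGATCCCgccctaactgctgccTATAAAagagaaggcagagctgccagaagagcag
Ccl9, chr10:68868878-68869127, minus strand: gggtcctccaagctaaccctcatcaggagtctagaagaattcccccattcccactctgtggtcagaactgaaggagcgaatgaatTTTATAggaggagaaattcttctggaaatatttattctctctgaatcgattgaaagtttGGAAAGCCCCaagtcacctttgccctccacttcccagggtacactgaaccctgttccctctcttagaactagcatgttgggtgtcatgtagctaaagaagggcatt
Ccl17, chr19:10209896-10210145, minus strand: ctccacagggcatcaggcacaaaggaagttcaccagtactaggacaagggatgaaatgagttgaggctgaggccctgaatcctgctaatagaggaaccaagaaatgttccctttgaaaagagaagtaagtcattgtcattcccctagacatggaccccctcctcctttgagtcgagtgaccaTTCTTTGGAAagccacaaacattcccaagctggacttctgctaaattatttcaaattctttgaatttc
Ccl22, chr19:10270360-10270609, minus strand: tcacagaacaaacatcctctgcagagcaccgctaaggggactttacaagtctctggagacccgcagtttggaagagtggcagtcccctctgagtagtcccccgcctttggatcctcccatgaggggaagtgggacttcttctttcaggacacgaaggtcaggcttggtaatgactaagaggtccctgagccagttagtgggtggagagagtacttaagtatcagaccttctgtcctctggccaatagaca
Ccl6, chr10:68883367-68883616, minus strand: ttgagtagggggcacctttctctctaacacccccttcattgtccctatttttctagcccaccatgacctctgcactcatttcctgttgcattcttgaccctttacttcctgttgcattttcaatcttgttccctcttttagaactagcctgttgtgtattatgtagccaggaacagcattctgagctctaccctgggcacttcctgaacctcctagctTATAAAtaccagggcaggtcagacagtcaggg
Ccl24, chr12:26737173-26737422, plus strand: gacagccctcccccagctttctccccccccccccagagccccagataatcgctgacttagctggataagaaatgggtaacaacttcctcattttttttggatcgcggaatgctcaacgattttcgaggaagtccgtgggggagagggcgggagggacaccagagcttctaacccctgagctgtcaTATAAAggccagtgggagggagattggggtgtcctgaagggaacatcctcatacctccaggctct
The capitals in Ccl7 are an NF-kappaB match on the opposite strand between 59 and 50 bases before the start and a TATA box between 34 and 29 bases before it. Ccl9 has an NF-kappaB match on the opposite strand between 106 and 97 bases and TATAAA on the opposite strand between 165 and 160 bases before the start. Ccl17 has the STAT motif between 68 and 59 bases before the start, a motif that is matched on both strands at once. Ccl6 and Ccl24 have only TATAAA, between 32 and 27 bases before the start in Ccl6 and between 65 and 60 bases in Ccl24. Ccl22 has no match to any of these motifs in this window. No matches overlapped in these promoters. Among the 27457 promoters of the same length, 13.1% hold TATAAA, 6.29% the STAT motif and 6.41% the NF-kappaB consensus. These matches describe the letters and do not show binding.

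In the RefSeq assembly the ligands lie in clusters. On chromosome 10, Ccl2 and Ccl7 are adjacent and are followed by Ccl11, Ccl12 and Ccl1. Another cluster of the same chromosome runs in the order Ccl5, Ccl9, Ccl6, Ccl3 and Ccl4. Ccl17 and Ccl22 are separated by 1 protein-coding gene on chromosome 19, and Ccl24 neighbours Ccl26 on chromosome 12.

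The monocyte attractants were considered first. Ccl2 (ENSRNOG00000007159) had 108, 136, 101 and 91.3 CPM in CNT-7 rats 3, 5, 10 and 11, and 21.1, 19.1, 13.2 and 39.1 CPM in CNT-T rats 1, 2, 12 and 13. The groups did not overlap, and the lowest CNT-7 rat was 2.33-fold above the highest CNT-T rat. In all genes tested, the CNT-7 rats lay above the CNT-T rats without overlap in 12.3%. The means were 109 ± 19.4 CPM (SD, n = 4) in the CNT-7 group against 23.1 ± 11.2 CPM (SD, n = 4) in the CNT-T group. On the log2 scale, Ccl2 was 2.24 higher after CNT-7 (standard error 0.29, edgeR's adjusted p = 0.0010, corrected by Benjamini-Hochberg), with a 95% interval from 1.58 to 2.90.

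Ccl7 (ENSRNOG00000000239), the neighbour of Ccl2, had 19.2, 23.0, 27.6 and 27.9 CPM in CNT-7 rats 3, 5, 10 and 11, and 4.56, 4.35, 5.27 and 18.5 CPM in CNT-T rats 1, 2, 12 and 13. CNT-T rat 13 was close to the lowest CNT-7 rat, which exceeded it 1.04-fold, whereas the other CNT-T rats were far below. The means were 24.4 ± 4.17 CPM (SD, n = 4) in the CNT-7 group against 8.17 ± 6.90 CPM (SD, n = 4) in the CNT-T group. For Ccl7, the log2 fold change was 1.59 (standard error 0.44, edgeR's adjusted p = 0.031), with a 95% interval from 0.59 to 2.58. Without CNT-T rat 13 it was 2.37 (adjusted p = 0.00028). Over all 8 fits without 1 rat it ranged from 1.37 to 2.37, with edgeR's adjusted p-values of up to 0.089.

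The log2 ratio of Ccl2 to Ccl7 counts in the same rat does not depend on library size, and it sets both neighbours side by side. It was 2.16 ± 0.44 (SD, n = 4) in the CNT-7 group against 1.69 ± 0.57 (SD, n = 4) in the CNT-T group, and the groups overlapped. The difference of 0.48 was within the spread of the rats (exact permutation test, two-sided, p = 0.229, adjusted p = 0.305 over the 4 pairs of ligands compared).

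The next gene of the cluster that was detected, Ccl12, is a further monocyte attractant of rodents and belongs to the list of other CC ligands. It had 2.00, 0.87, 2.20 and 3.37 CPM in CNT-7 rats 3, 5, 10 and 11, and between 0.030 and 0.13 CPM in the CNT-T rats. These levels correspond to 241 counts in the 4 CNT-7 rats and 9 in the 4 CNT-T rats. The log2 fold change was 4.76 (standard error 0.57, edgeR's adjusted p = 0.00072). Ccl12 passed the filter on low counts through the CNT-7 rats alone. Ccl11, which lies between Ccl7 and Ccl12 and attracts eosinophils, had at most 0.11 CPM in any rat.

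**Figure D1:**
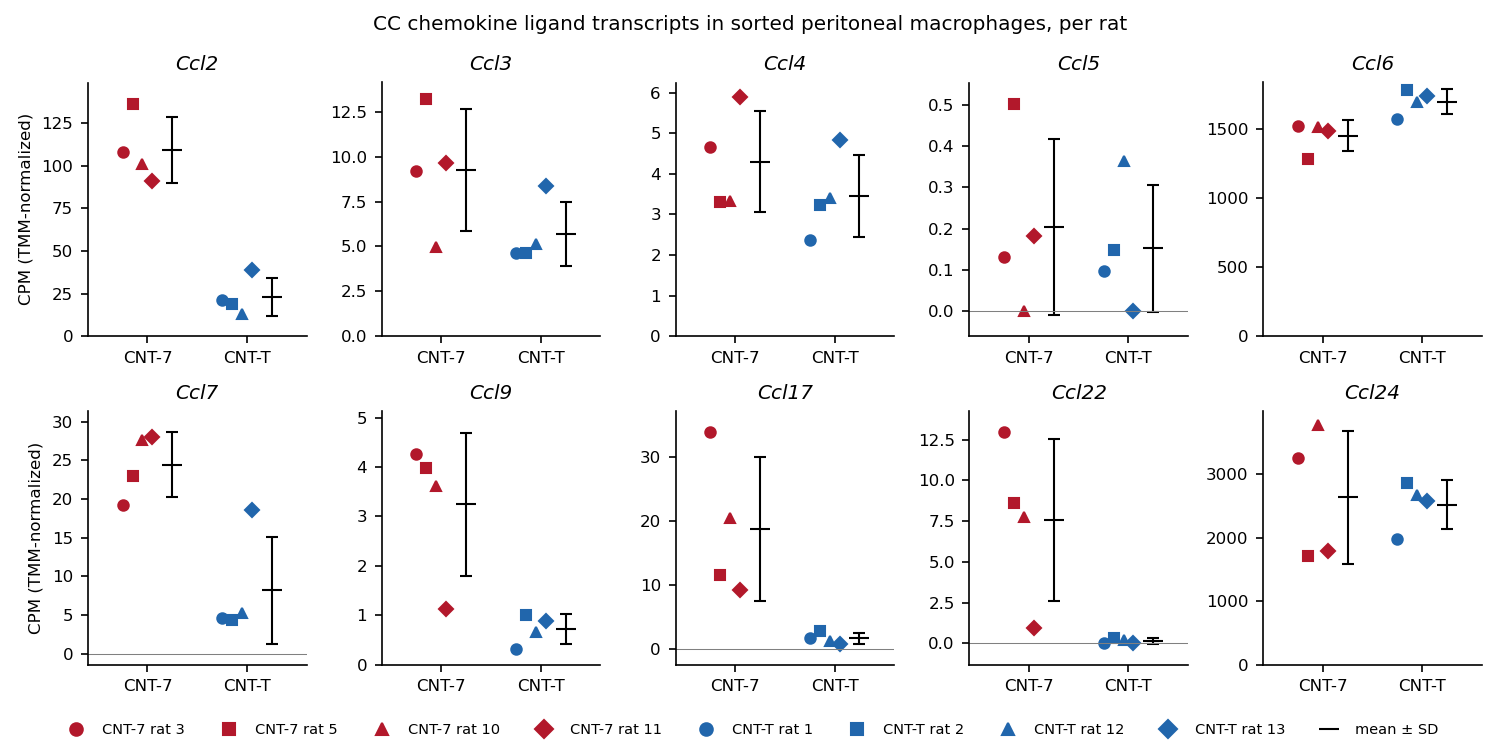
Level of each of the 10 CC chemokine ligands in CPM (linear axis, its own scale in each panel) for the 4 CNT-7 rats (red) and the 4 CNT-T rats (blue), with the mean and SD of each group in black. Ccl2 ranged from 91.3 to 136 CPM in CNT-7 rats against 13.2 to 39.1 CPM in CNT-T rats, and for Ccl7, CNT-T rat 13 (18.5 CPM) stood apart from the other CNT-T rats.

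Ccl17 and Ccl22, the ligands of Ccr4, showed the largest log2 fold changes of the 9 ligands tested. Ccl17 (ENSRNOG00000016278) had 33.8, 11.5, 20.4 and 9.09 CPM in CNT-7 rats 3, 5, 10 and 11, and 1.60, 2.81, 1.25 and 0.79 CPM in CNT-T rats 1, 2, 12 and 13. The groups were separate, the lowest CNT-7 rat being 3.24-fold above the highest CNT-T rat. The means were 18.7 ± 11.2 CPM (SD, n = 4) in the CNT-7 group against 1.61 ± 0.86 CPM (SD, n = 4) in the CNT-T group. For Ccl17, the log2 fold change was 3.52 (standard error 0.49, edgeR's adjusted p = 0.0015), with a 95% interval from 2.41 to 4.63.

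Ccl22 (ENSRNOG00000016535) had 12.9, 8.61, 7.73 and 0.94 CPM in CNT-7 rats 3, 5, 10 and 11. In CNT-T rats 2 and 12 it had 0.33 and 0.23 CPM, and CNT-T rats 1 and 13 had no count, which allows up to 0.0978 and 0.107 CPM. CNT-7 rat 11 was thus far below the other CNT-7 rats, but still 2.89-fold above the highest CNT-T rat. The level was 7.56 ± 4.96 CPM (SD, n = 4) in the CNT-7 group against 0.139 ± 0.165 CPM (SD, n = 4) in the CNT-T group, which rests on 891 counts against 18. The log2 fold change was 5.67 (standard error 0.95, edgeR's adjusted p = 0.0033), with a 95% interval from 3.54 to 7.80. Without CNT-T rat 2, the highest of its group, it was 6.51 (adjusted p = 0.0096). Over all 8 fits without 1 rat it ranged from 5.27 to 6.51, with edgeR's adjusted p-values of up to 0.013.

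CNT-7 rat 3 was the highest and CNT-7 rat 11 the lowest of the CNT-7 rats for Ccl17 as well as for Ccl22. Their log2 ratio in the same rat was 1.61 ± 1.18 (SD, n = 4) in the CNT-7 group against 4.38 ± 2.01 (SD, n = 4) in the CNT-T group. The groups overlapped, and the difference of -2.77 was not significant (exact permutation test, two-sided, p = 0.0857, adjusted p = 0.171 over the 4 pairs). With an added count of 2 in place of 0.5, the difference was -1.74.

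Because Ccl17 and Ccl22 are also products of dendritic cells, markers of these cells are given beside them. Of 11 markers 6 were tested, with 4 higher (Cd83, Batf3, Clec9a and Ccr7) and 1 lower (Fscn1) after CNT-7. In all genes tested, 13.9% were higher and 14.0% lower. Clec9a and Ccr7 passed the filter on low counts through the CNT-7 rats alone. The summed level of the 11 markers ranged from 285 to 401 CPM in CNT-7 rats against 466 to 741 CPM in CNT-T rats, but Fscn1 made up at least 91.7% of it. Without Fscn1 (a choice made after seeing its level) the sum ranged from 17.2 to 23.7 CPM in CNT-7 rats against 7.95 to 16.2 CPM in CNT-T rats. Ccr7, the homing receptor of mature dendritic cells, had 0.99, 3.15, 1.48 and 0.40 CPM in CNT-7 rats 3, 5, 10 and 11 and at most 0.27 CPM after CNT-T. It was lowest in the CNT-7 rat with the lowest Ccl17 and Ccl22, but it was highest in rat 5 and not in rat 3. The markers Flt3, Xcr1 and Cd207 had at most 0.44, 0.20 and 0.036 CPM in any rat, and Ccl19 had no count. Zbtb46, another defining marker, ranged from 2.89 to 6.83 CPM in CNT-7 rats against 3.80 to 7.92 CPM in CNT-T rats. It did not pass the threshold (log2 fold change -0.22, edgeR's adjusted p = 0.65). The part of dendritic cells in the rise of Ccl17 and Ccl22 was not tested.

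Ccl9 and Ccl6 are adjacent genes and ligands of Ccr1. Ccl9 (ENSRNOG00000028548) had 4.27, 3.99, 3.61 and 1.12 CPM in CNT-7 rats 3, 5, 10 and 11, and 0.33, 1.0, 0.66 and 0.90 CPM in CNT-T rats 1, 2, 12 and 13. As for Ccl22, CNT-7 rat 11 was far below the other CNT-7 rats, and it exceeded the highest CNT-T rat 1.12-fold. The means were 3.25 ± 1.44 CPM (SD, n = 4) in the CNT-7 group against 0.72 ± 0.30 CPM (SD, n = 4) in the CNT-T group. For Ccl9, the log2 fold change was 2.16 (standard error 0.46, edgeR's adjusted p = 0.0092), with a 95% interval from 1.14 to 3.19.

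Ccl6 (ENSRNOG00000030021) had 1520, 1285, 1513 and 1487 CPM in CNT-7 rats 3, 5, 10 and 11, and 1574, 1782, 1694 and 1738 CPM in CNT-T rats 1, 2, 12 and 13. All CNT-7 rats were below all CNT-T rats, a separation in this direction that 12.6% of all genes tested showed, but the lowest CNT-T rat was only 1.04-fold above the highest CNT-7 rat. Ccl6 also varied least among the rats, with a coefficient of variation of 7.71% after CNT-7 and 5.28% after CNT-T. The means were 1451 ± 112 CPM (SD, n = 4) in the CNT-7 group against 1697 ± 89.6 CPM (SD, n = 4) in the CNT-T group. For Ccl6, the log2 fold change was -0.23 (standard error 0.084, edgeR's adjusted p = 0.088), with a 95% interval from -0.41 to -0.038. Its adjusted p-value was above 0.10 in 7 of the 8 repeats without 1 rat, the lowest value being 0.069 without CNT-T rat 1 and the highest 0.21 without CNT-7 rat 5.

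The log2 ratio of Ccl6 to Ccl9 was 8.96 ± 0.94 (SD, n = 4) in the CNT-7 group against 11.28 ± 0.63 (SD, n = 4) in the CNT-T group. The groups did not overlap, and the difference was -2.32 (exact permutation test, two-sided, p = 0.0286, which 4 rats against 4 cannot go below, adjusted p = 0.114 over the 4 pairs). With the p-values of the other pairs, no separation of these rats could have given a smaller adjusted value, so that the correction says nothing about this pair. The unadjusted p-value is no separate evidence either. The pair was chosen after the values of both genes were seen, and these had been called in opposite directions. Ccl9 had also passed the filter on low counts through the CNT-7 rats alone. In the 8 repeats without 1 rat the difference ranged from -2.78 to -2.02. Its constant sign adds no support, since the pair was chosen with both directions known.

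**Figure D2:**
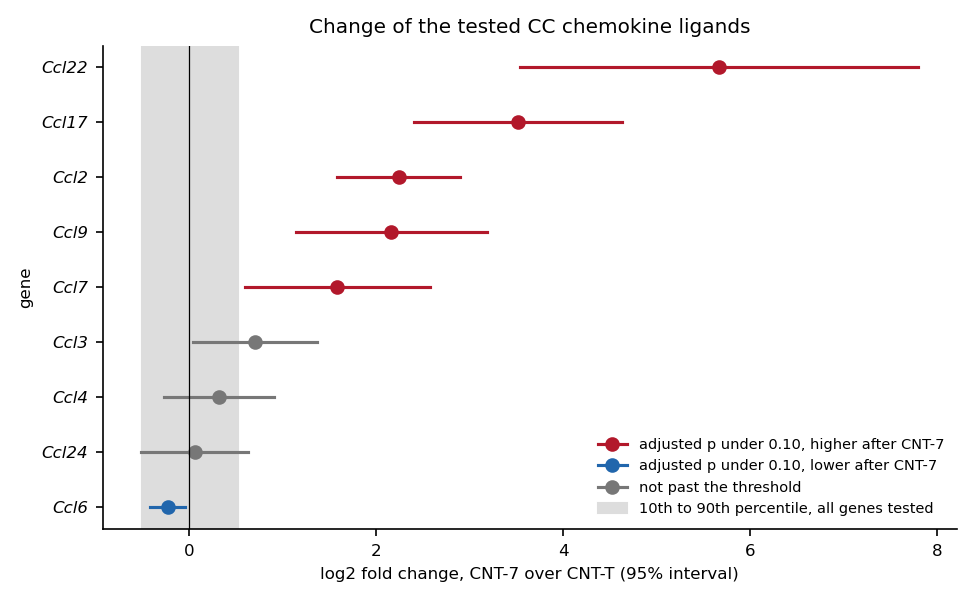
Log2 fold change (CNT-7 relative to CNT-T) (points) with its 95% interval (lines) for the 9 tested CC chemokine ligands, over the range from the 10th to the 90th percentile of all 12124 genes tested (grey, -0.51 to 0.53). Ccl22 (5.67), Ccl17 (3.52), Ccl2 (2.24), Ccl9 (2.16) and Ccl7 (1.59) lay to the right of this range, as did Ccl3 (0.71), which did not pass the threshold, and Ccl6 (-0.23) lay within it.

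Ccl3 and Ccl4, neighbouring genes of inflammatory chemokines that attract monocytes and T cells, did not pass the threshold. Ccl3 (ENSRNOG00000011205) had 9.20, 13.2, 4.95 and 9.66 CPM in CNT-7 rats 3, 5, 10 and 11, and 4.63, 4.61, 5.14 and 8.34 CPM in CNT-T rats 1, 2, 12 and 13. The groups overlapped, since CNT-7 rat 10 was low and CNT-T rat 13 high. The means were 9.25 ± 3.38 CPM (SD, n = 4) in the CNT-7 group against 5.68 ± 1.79 CPM (SD, n = 4) in the CNT-T group. Ccl3 had a log2 fold change of 0.71 (standard error 0.30, edgeR's adjusted p = 0.13), with a 95% interval from 0.041 to 1.37. It passed the threshold without CNT-7 rat 10 (log2 fold change 0.92, adjusted p = 0.028), without CNT-T rat 13 (0.95, adjusted p = 0.056) and in DESeq2 (0.70, adjusted p = 0.072).

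Ccl4 (ENSRNOG00000011406) had 4.66, 3.32, 3.32 and 5.90 CPM in CNT-7 rats 3, 5, 10 and 11, and 2.38, 3.22, 3.40 and 4.83 CPM in CNT-T rats 1, 2, 12 and 13. The groups overlapped, and CNT-T rat 13 was again the highest of its group. The log2 fold change was 0.32 (standard error 0.26, edgeR's adjusted p = 0.45), and its 95% interval from -0.27 to 0.90 includes changes in either direction. The log2 ratio of Ccl3 to Ccl4 was 1.06 ± 0.64 (SD, n = 4) in the CNT-7 group against 0.71 ± 0.20 (SD, n = 4) in the CNT-T group, and the difference was 0.35 (exact permutation test, two-sided, p = 0.429, adjusted p = 0.429 over the 4 pairs).

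Ccl5 (ENSRNOG00000010906), a chemokine of T and NK cells that macrophages also make, had 4, 15, 0 and 5 counts in CNT-7 rats 3, 5, 10 and 11, and 3, 5, 11 and 0 counts in CNT-T rats 1, 2, 12 and 13. The highest level was 0.50 CPM, in CNT-7 rat 5, which also had the most Cd3e (2.11 CPM, against at most 0.51 CPM in the other rats). CNT-T rat 12, the next highest for Ccl5 with 0.36 CPM, had 0.23 CPM of Cd3e. CNT-7 rat 10, the next highest for Cd3e with 0.51 CPM, had no count of Ccl5. The part of T cells in the level of Ccl5 was not tested. A difference between the particles was not detectable at this depth.

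Ccl24 (ENSRNOG00000031162), the eosinophil attractant, had 3250, 1712, 3767 and 1790 CPM in CNT-7 rats 3, 5, 10 and 11, and 1974, 2851, 2668 and 2582 CPM in CNT-T rats 1, 2, 12 and 13. After CNT-7, rats 3 and 10 were high and rats 5 and 11 low, with all CNT-T rats in between. The means were 2630 ± 1037 CPM (SD, n = 4) in the CNT-7 group against 2519 ± 380 CPM (SD, n = 4) in the CNT-T group. The coefficient of variation was 39.4% after CNT-7 and 15.1% after CNT-T, a difference that was not tested. The log2 fold change was 0.062 (standard error 0.26, edgeR's adjusted p = 0.89), with a 95% interval from -0.51 to 0.63. Ccl24 took between 0.171% and 0.368% of all counts of a rat, and was between the 17th and the 51st gene by counts. The summed level of 5 eosinophil markers was 9.33 CPM in CNT-7 rat 3, of which Ccr3, the receptor of Ccl24, made up 8.74 CPM. In the other rats the sum was at most 0.67 CPM. The granule genes Prg3 and Epx had no count, and the part of eosinophils in the level of Ccl24 was not tested. Ccl26, the other ligand of this cluster, had at most 0.21 CPM in any rat.

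**Figure D3:**
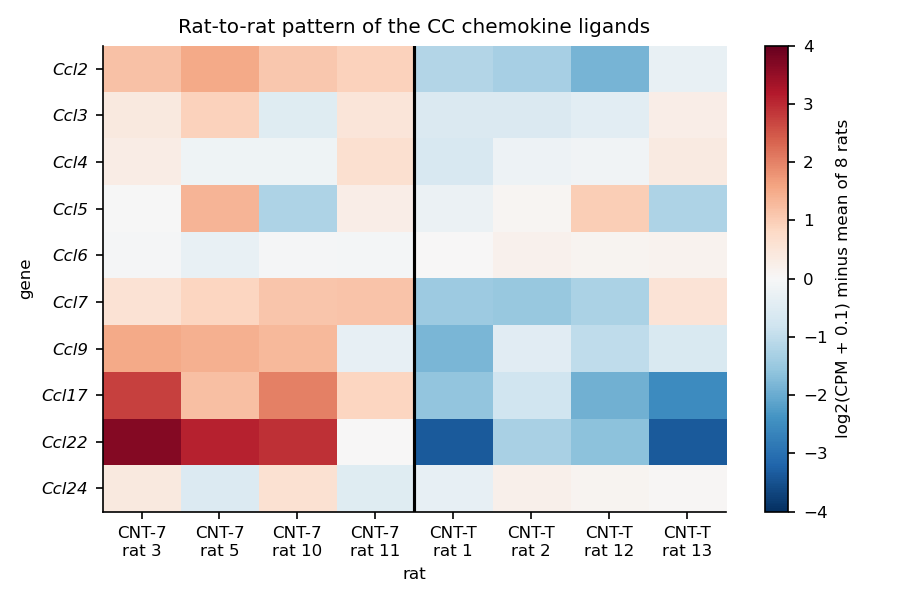
Level of each CC chemokine ligand (rows) in each rat (columns) as log2(CPM + 0.1) minus the mean of the 8 rats, with red above and blue below that mean and a black line between CNT-7 and CNT-T. CNT-7 rat 11 is paler than the other CNT-7 rats for Ccl9 and Ccl22 (1.12 and 0.94 CPM), and CNT-T rat 13 is above the other CNT-T rats for Ccl2, Ccl3, Ccl4 and Ccl7.

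Within the CNT-T group, rat 13 was the highest of 4 rats for 4 of the 10 ligands, Ccl2, Ccl3, Ccl4 and Ccl7, and CNT-T rat 2 for 5, Ccl6, Ccl9, Ccl17, Ccl22 and Ccl24. CNT-T rat 13 was at the same time the lowest of its group for Ccl17. Other genes, named after their values were seen, went in either direction in rat 13. The neutrophil attractants Cxcl1 and Cxcl2 had 16.5 and 68.9 CPM there, against 3.81 to 7.51 and 14.9 to 31.4 CPM in rats 1, 2 and 12, and the cytokine Il1a had 3.62 CPM against 0.68 to 0.92 CPM. Fos, an immediate early gene, was lowest there (5.51 CPM against 6.36 to 7.24 CPM), as were Nfkb2 and Relb. Jun and Atf3, looked at together with Fos, were not. Jun was highest in rat 13 (21.9 CPM against 11.1 to 15.8 CPM), and Atf3 had 14.6 CPM against 8.80 to 14.9 CPM. Without CNT-T rat 13, Ccl3 joined the 5 ligands that were higher after CNT-7, and Ccl6 did not pass (edgeR's adjusted p = 0.15).

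Among the CC chemokine receptors, Ccr7 and Ccrl2 were higher and Ccr1 and Ackr4 lower after CNT-7, with Ccr7 past the filter on low counts through the CNT-7 rats alone and Ackr4 through the CNT-T rats alone. The median log2 fold change of all genes tested was 0.0083. Ccr1, a receptor of Ccl3, Ccl5, Ccl6, Ccl7 and Ccl9, fell from 69.2 ± 19.7 CPM (SD, n = 4) after CNT-T to 32.7 ± 11.2 CPM (SD, n = 4) after CNT-7, without overlap. Its log2 fold change was -1.08 (standard error 0.25, edgeR's adjusted p = 0.015). Ccrl2, an atypical receptor that binds chemerin, had a log2 fold change of 0.51 (edgeR's adjusted p = 0.066). Ccr4, the receptor of Ccl17 and Ccl22, had at most 0.27 CPM in any rat. Ccr3, the receptor of Ccl24, had 8.74 CPM in CNT-7 rat 3 and at most 0.64 CPM in the other 7 rats. Ccr2 was not analysed here.

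Of the 10 other CC ligands, only Ccl12 and Ccl28 had enough counts to be tested, with Ccl12 higher after CNT-7. Ccl28, a ligand of mucosal tissue, had a log2 fold change of -0.18 (edgeR's adjusted p = 0.81).

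Signalling pathways known to act on these ligands were described by 3 further lists, which hold receptors, factors, targets and feedback inhibitors. Of 21 interleukin-4 and GM-CSF signalling genes 20 were tested, of which 12 were higher and 1 (Il13ra1) lower after CNT-7. The median log2 fold change of this list was 0.73, where 13.9% of all genes tested were higher and 14.0% lower. Pparg and Socs1 passed the filter on low counts through the CNT-7 rats alone. The crosslinking enzyme Tgm2 had 5302 ± 3012 CPM (SD, n = 4) in the CNT-7 group against 313 ± 159 CPM (SD, n = 4) in the CNT-T group (log2 fold change 4.08, edgeR's adjusted p = 0.00072). Cish, a feedback inhibitor that Stat5 induces, had a log2 fold change of 3.46, the arginase gene Arg1 one of 3.20, and Socs1, a feedback inhibitor of JAK kinases, one of 2.45, with edgeR's adjusted p-values between 0.00040 and 0.0096. Stat6 itself, named after its values were seen, had a log2 fold change of 0.17 (edgeR's adjusted p = 0.15). Retnla was below the filter.

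Of 14 NF-kappaB and inflammatory cytokine genes 13 were tested, of which 7 were higher after CNT-7 and 6 did not pass. The median log2 fold change was 0.39, where 13.9% of all genes tested were higher and 14.0% lower. Il1b, one of the 7, passed the filter on low counts through the CNT-7 rats alone. Tnfaip3, an inhibitor that NF-kappaB induces, had 17.9 ± 3.01 CPM (SD, n = 4) in the CNT-7 group against 8.48 ± 1.04 CPM (SD, n = 4) in the CNT-T group, without overlap (log2 fold change 1.08, edgeR's adjusted p = 0.0010). Nfkbiz, a nuclear regulator of NF-kappaB, had a log2 fold change of 0.81, and the subunits Nfkb2 and Relb had log2 fold changes of 0.56 and 0.52, with edgeR's adjusted p-values between 0.0028 and 0.047. The cytokine Tnf, also named after its values were seen, did not pass (log2 fold change -0.46, edgeR's adjusted p = 0.28).

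All 13 genes of interferon receptors and factors were tested, of which Ifngr2 was higher, Irf8 was lower and 11 did not pass, with a median log2 fold change of -0.051. These 2 of 13 compare with 27.9% of all genes tested that passed in either direction. Irf8, a transcription factor of the monocyte and dendritic cell lineages, had 24.3 ± 7.77 CPM (SD, n = 4) in the CNT-7 group against 90.9 ± 21.6 CPM (SD, n = 4) in the CNT-T group, without overlap (log2 fold change -1.90, edgeR's adjusted p = 0.00072). Ifngr2, a chain of the interferon-gamma receptor, had a log2 fold change of 0.31 (edgeR's adjusted p = 0.019).

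Of 12 proteases that can cut CC chemokines, 7 were tested, 4 were higher and 1 lower after CNT-7, with a median log2 fold change of 0.37, beside the same 13.9% and 14.0% of all genes tested. Plau, which encodes urokinase, had 126 ± 62.9 CPM (SD, n = 4) in the CNT-7 group against 25.1 ± 1.85 CPM (SD, n = 4) in the CNT-T group (log2 fold change 2.33, edgeR's adjusted p = 0.0011). Macrophage elastase, Mmp12, ranged from 0.90 to 4.80 CPM in CNT-7 rats against 0.030 to 0.21 CPM in CNT-T rats. Mmp7 (matrilysin) had between 0.76 and 7.72 CPM after CNT-7 and 1 count or none in each of the CNT-T rats. Mmp7 and Mmp12 passed the filter on low counts through the CNT-7 rats alone. The gelatinase Mmp9 moved in the opposite direction, with 0.60 to 1.05 CPM in CNT-7 rats against 3.75 to 21.5 CPM in CNT-T rats (log2 fold change -3.50, edgeR's adjusted p = 0.0041).

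**Figure D4:**
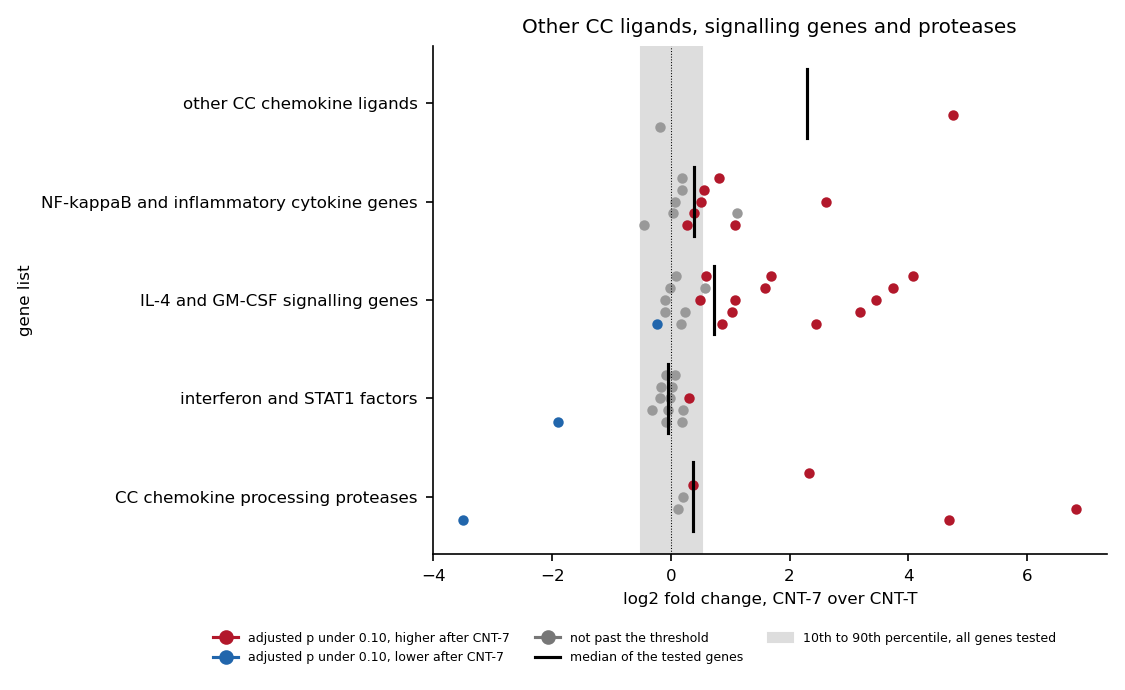
Log2 fold change (CNT-7 relative to CNT-T) for each tested gene (points) of 5 lists, with the median of each list (black bar) and the 10th to 90th percentile of all genes tested (grey). The list of interleukin-4 and GM-CSF signalling genes had 12 of 20 tested genes higher after CNT-7, where 13.9% of all genes tested were higher. Of the interferon factors, 11 of 13 did not pass the threshold, which 27.9% of all genes tested passed in either direction.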

How the data were processed

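The authors sequenced 8 stranded mRNA libraries, each taken as 1 rat, on an Illumina instrument and deposited estimated counts per gene, made by Salmon (version not given in the sources used here) on Ensembl transcripts of Rnor_6.0 and summed with tximeta. The counts hold no molecular identifiers, so counting limits cover counting error only. The deposited values were whole numbers and were used as such, and no column was left out. Genes were filtered with filterByExpr (minimum count 10, minimum total 15), and CNT-7 was compared with CNT-T by edgeR 4.0.16 (TMM, quasi-likelihood test, R 4.3.3), with Benjamini-Hochberg adjustment over 12124 genes and a threshold of 0.10, that of the study. Standard errors were derived from the F statistic. Log2 ratios of neighbouring ligands, chosen after their values were seen, were formed after adding 0.5 to each count and compared by exact permutation tests.

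Alternatives were DESeq2 1.42.0, upper-quartile normalization, other filters and thresholds, a term for the range of the rat numbers, and leaving out each rat. The test scripts were checked on simulated data. All ligands are given, and 1 item of the other lists is not reported here. Of each other list, at most the 4 called genes with the largest change and a mean of at least 1 CPM are named, together with receptors of the ligands of at least 1 CPM. Ccl11, Ccl26, Ccl28, Ccr4, Tnf, Stat6 and the genes of other cells were named after their values were seen. The ligands and lists were chosen with earlier results of these data known. Promoters were read from RefSeq (GRCr8), and no coordinate of that assembly was joined to the counts.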

Additional observations from a re-analysis of the deposited data

Results flagged for a closer look

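In 64 groups of 4 rats, for the ligands and the other named genes, the highest or lowest rat was compared with the nearest of the others by Dixon's ratio at its 95% critical value. By chance 1 in 20 groups, or 3.2, would exceed this value, and 6 did. CNT-T rat 13 stood above the other CNT-T rats for Ccl7 (18.5 CPM, others 4.35 to 5.27) and for Ccl3 (8.34 CPM, others 4.61 to 5.14). CNT-7 rat 5 stood below the other CNT-7 rats for Ccl6 (1285 CPM, others 1487 to 1520) and above them for Nfkbiz (50.9 CPM, others 34.5 to 37.0). CNT-T rat 1 stood above the others of its group for Mmp9 (21.5 CPM, others 3.75 to 6.55). For Mmp7, CNT-T rat 13 had 0 CPM and the others of its group 0.030 to 0.033 CPM, which is 1 count each.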

How the results depend on the processing

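Of 116 alternative values for the log2 fold changes of the 9 tested ligands, 101 kept the direction and the side of the threshold. In 9, all of Ccl6, the call was lost, among them no filter on low counts (edgeR's adjusted p = 0.11) and the term for the range of the rat numbers (0.101). In 3, all of Ccl3, the threshold was passed. In 3, all of Ccl24, the sign turned, to -0.056 without CNT-7 rat 3, -0.16 without CNT-7 rat 10 and -0.039 without CNT-T rat 1, within a range from -0.16 to 0.22 over the fits without 1 rat. The causes were not tested. Ccl22 could not be tested where at least 10 counts were required in every rat. The number of ligands called was 6, between 5 and 6 without 1 rat, and 7 with DESeq2. The number of genes called was 3383, between 2578 and 3515 without 1 rat, and 1006 with at least a 2-fold change, and that in the other lists was 33, between 29 and 34 without 1 rat, and 20 with at least a 2-fold change. No paired analysis was possible because the groups share no rat number. For Ccl5 and Ccl9 and for Ccl22 after CNT-T, low counts limit the precision.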
